A study of Mus musculus with 18 samples.

Results

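The genes described here were 37 regulators and executioners of cell death, chosen by name out of 49315 genes counted in mouse bone marrow-derived macrophages (BMDMs). They comprised 6 caspases, 13 members of the Bcl-2 family, 5 caspase inhibitors (Xiap, Birc2, Birc3, Birc6 and Cflar), 3 genes of death receptor signalling (Fas, Fadd and Tnfrsf10b), 3 of necroptosis (Ripk1, Ripk3 and Mlkl), 3 of the apoptosome and mitochondrial release (Apaf1, Cycs and Diablo), 3 of the inflammasome and pyroptosis (Nlrp3, Pycard and Gsdmd), and Pdcd10, a scaffold protein of kinase complexes first named as programmed cell death 10. The study asked which genes depend on the histone deacetylase HDAC3 when macrophages engulf dying cells, the process called efferocytosis. BMDMs came from HDAC3f/f mice, which carry LoxP sites beside exon 7 of Hdac3, and from M-HDAC3-/- mice, in which the floxed allele is combined with a Cre recombinase driven by the Lyz2 locus, active in myeloid cells. Each genotype was left untreated, or fed for 45 min with apoptotic K562 cells (ACs) or with non-apoptotic K562 cells (NACs), a human leukaemia cell line, after which free cells were washed off and the BMDMs were kept for 5 h. ACs were made by 15 min of UV-B exposure. The 6 groups held 3 libraries each, with 4704491 to 26421267 counts a library (median 16477929). The 3 libraries of a group were described as biological replicates, from 3 mice a group by the study's methods, and whether 1 mouse gave libraries to several treatments was not stated.

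Apoptosis runs along an extrinsic route, in which receptors such as Fas recruit Fadd and caspase-8, and an intrinsic route, in which Bax and Bak1 open the outer mitochondrial membrane and released cytochrome c (Cycs) builds the apoptosome with Apaf1 and caspase-9. Anti-apoptotic Bcl-2 proteins hold Bax and Bak1 in check, BH3-only proteins relieve that hold, and the inhibitor of apoptosis proteins (Xiap, Birc2, Birc3) and Cflar block caspases or their activation. Where caspase-8 is inactive, Ripk1, Ripk3 and Mlkl can carry out necroptosis, and in macrophages the inflammasome activates caspase-1, which cleaves gasdermin D (Gsdmd) and releases inflammatory cytokines. A macrophage that has taken up ACs also has to survive their load.

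Macrophage identity was clear in all 18 libraries, since 10 macrophage markers (among them Cd68, Csf1r and Adgre1) summed to 16946 to 54295 CPM (counts-per-million values on library sizes scaled by the trimmed mean of M values). B cell, T and NK cell and dendritic cell markers summed to at most 20.5, 110.6 and 5.88 CPM. Granulocyte markers were the most abundant of the other lists at 240.7 to 1405 CPM, and fibroblast markers summed to 5.83 to 270.4 CPM. Mouse erythroid genes, listed because K562 is an erythroleukaemia line, summed to 11.8 to 100.1 CPM. Hdac3 itself did not separate the genotype labels: it ranged from 3.38 to 48.8 CPM in HDAC3f/f and from 4.66 to 74.6 CPM in HDAC3-/- libraries, and since only exon 7 is floxed, the count of the whole gene does not test the deletion. Groups are therefore called by their labels throughout. One library stood apart, HDAC3-/- untreated replicate 1, which had the fewest counts (4704491) and correlated with its group at 0.87 to 0.89 over log-scaled genes, where all other pairs of replicates reached 0.92 to 0.97.

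All 37 genes had reads, but their levels differed widely. Per kilobase of exon, the pore-forming effectors led: Bax had a median of 272 CPM per kb over the 18 libraries (range 106 to 484) and Bak1 of 110.3 (41.9 to 228). The most abundant survival factor was Mcl1, a short-lived anti-apoptotic Bcl-2 protein that myeloid cells depend on, at 106 CPM per kb (74.0 to 194), so its range lay over that of Bak1 and the order of the pair cannot be told. Gsdmd followed at 74.6 CPM per kb, Bcl2a1b, an inducible survival factor of leukocytes, at 68.5, and the BH3-only gene Bad at 52.8. At the other end stood Bcl2 (0.326 CPM per kb), Pmaip1, which encodes the BH3-only protein Noxa (0.621), and Casp4, the intracellular sensor of lipopolysaccharide (0.742), whose ranges overlapped. Tnfrsf10b, the mouse TRAIL receptor, was the lowest with 0.195 CPM per kb and 0 to 19 counts a library, and it missed the minimum count in 3 of the 12 comparisons, so that 36 or 37 of the genes were tested in each.

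**Figure D1:**
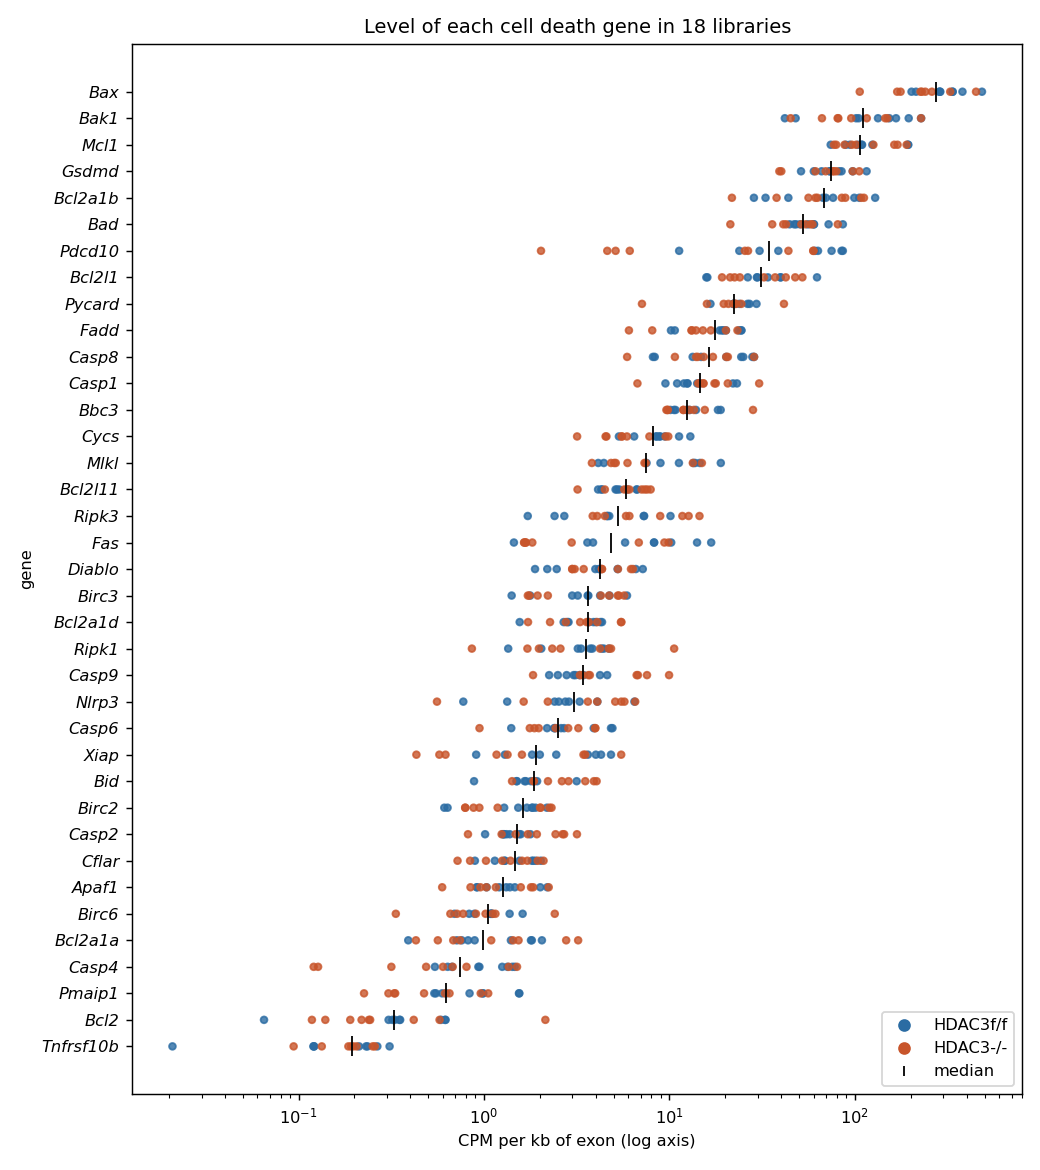
Level of the 37 genes in CPM per kb of exon (log axis), 1 point a library (blue HDAC3f/f, orange HDAC3-/-) and a black bar at the median of the 18 libraries; 1 library with a Tnfrsf10b count of 0 is not drawn. Bax, Bak1 and Mcl1 lie at the top, and Bcl2 and Tnfrsf10b at the bottom.

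Each comparison was tested across all genes by the quasi-likelihood test of edgeR, p-values were adjusted by the method of Benjamini and Hochberg, and a gene was called at an adjusted p below 0.05. Calls are those of edgeR unless DESeq2's Wald test is named. Between the genotypes, 3 of 37 genes were called with ACs, all lower in HDAC3-/- BMDMs (Xiap, Fas and Pdcd10), where 3.75% of all genes tested were called, 2.96% lower and 0.788% higher. With NACs 1 of 37 was called, Xiap, which was higher, against 0.864% of all genes, 0.537% higher and 0.327% lower. In untreated BMDMs 7 of 36 were called, with Casp4, Xiap, Fas, Ripk1, Mlkl and Pdcd10 lower and Ripk3 higher, against 11.6% of all genes, 8.56% lower and 3.04% higher. That split depended on the scaling: by DESeq2's size factors 888 of all genes were lower and 749 higher, with members at 4 and 1, and by library totals alone 2351 and 54, with members at 13 and 0. With NACs the all-gene split of 64 higher and 39 lower became 81 and 71 by size factors and 12 and 4 by totals. The median log2 fold change of the genes was -0.38 with ACs, 0.25 with NACs and -0.28 untreated, beside -0.01, -0.00 and 0.06 over all genes.

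Among the treatments, ACs against NACs gave 3 calls of 37 in HDAC3-/- BMDMs, all lower with ACs (Xiap, Fas and Pdcd10), where 7.38% of all genes were called, 4.73% lower and 2.65% higher (579 and 325 genes, and 501 and 77 by library totals alone). In HDAC3f/f BMDMs the same contrast gave 0 calls of 36, with 2 at an unadjusted p below 0.05, and 0.0% of all genes (0 of 11844, with 493 at an unadjusted p below 0.05), and the Wald test of DESeq2 also gave 0 of both. NACs against untreated gave 4 calls of 36 in HDAC3f/f BMDMs, with Xiap, Fas and Nlrp3 lower and Ripk3 higher (8.52% of all genes, 4.33% lower and 4.19% higher). The contrast ran the other way in HDAC3-/- BMDMs, with 5 calls of 37, all higher with NACs (Xiap, Birc2, Birc3, Fas and Ripk1), beside 6.54% of all genes, 6.2% higher and 0.338% lower. By DESeq2's size factors 0 genes, members included, were called there, and in HDAC3f/f BMDMs the all-gene split of 499 higher and 516 lower became 699 and 394. ACs against untreated gave 0 of 37 in either genotype by edgeR, with 4 genes at an unadjusted p below 0.05 in each, where 0.0% of all genes were called in HDAC3f/f and 0.0% in HDAC3-/- BMDMs. By edgeR 1551 of 12199 genes in HDAC3f/f and 1761 of 12136 in HDAC3-/- BMDMs had an unadjusted p below 0.05. DESeq2 also called 0 of 37 for ACs against untreated, beside 0.041% and 0.124% of all genes. It gave 3 and 4 members an unadjusted p below 0.05, beside 1840 and 2066 of all genes. The comparisons share groups, so their calls are not independent of each other.

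The interaction terms test whether a treatment effect differed between genotypes. For NACs against untreated it was called for 19 of 37 genes (51.4%), 15 with a more positive effect in HDAC3-/- BMDMs and 4 with a more negative one, beside 34.8% of all genes, 22.1% more positive and 12.8% more negative. Scaled by DESeq2's size factors the split was 13 and 4 among the members and 2284 and 2726 among all genes (2869 and 1661 before), and by library totals alone it was 17 and 0 and 3601 and 400. For ACs against NACs edgeR called it for Xiap alone and DESeq2's Wald test for Xiap, Pdcd10 and Fas (3 of 37 beside 5.83% of all genes), where by edgeR 0.0765% of all genes were called, 0.0459% more negative and 0.0306% more positive (6 and 4 genes, 29 and 9 by size factors and 3 and 0 by totals). For ACs against untreated edgeR called 0 of 37, with 7 at an unadjusted p below 0.05, and 0.0% of all genes. DESeq2's Wald test called 3 of 37 beside 9.26% of all genes. These were Fadd (-1.73, adjusted p = 0.0387), Bcl2l1 (-1.62, adjusted p = 0.0364) and Bax (-1.61, adjusted p = 0.0341). By edgeR 3187 of 13225 genes had an unadjusted p below 0.05 in that interaction.

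Single libraries decided how many genes were called. Without HDAC3-/- untreated replicate 1, the library that stood apart, 18 of the genes were called between untreated genotypes beside 46.3% of all genes, 17 for NACs against untreated in HDAC3-/- BMDMs beside 35.5%, and 21 in the interaction of the 2 beside 46.2%. Of the 31 calls that use this library 30 were kept without it, the exception being Casp8 in the interaction. Leaving out any other untreated library left 0 or 1 call between untreated genotypes, beside at most 1.98% of all genes, and leaving out any other library of that comparison left 0 for NACs against untreated in HDAC3-/- BMDMs, beside 0.0% of all genes. Without HDAC3f/f NACs replicate 2 the count rose to 15 between genotypes with NACs, beside 24.6% of all genes, and to 16 for NACs against untreated in HDAC3f/f BMDMs, beside 34.2%, where it was 7 without HDAC3f/f untreated replicate 3 (10.9% of all genes) and 0 without any of the other 4 (0.169% to 0.375%). With ACs, the 3 genotype calls fell to 0 without HDAC3-/- ACs replicate 1 and to 1 (Pdcd10) without HDAC3f/f ACs replicate 1, and without HDAC3-/- ACs replicate 3 only Fadd was called, beside 0.0%, 2.91% and 2.68% of all genes. Without HDAC3-/- ACs replicate 2 the members stayed at 3 while 13.3% of all genes were called. For ACs against NACs in HDAC3-/- BMDMs there were 0 calls without HDAC3-/- ACs replicate 1 (0.0% of all genes) and 7 without replicate 2, beside 23.9% of all genes.

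**Figure D2:**
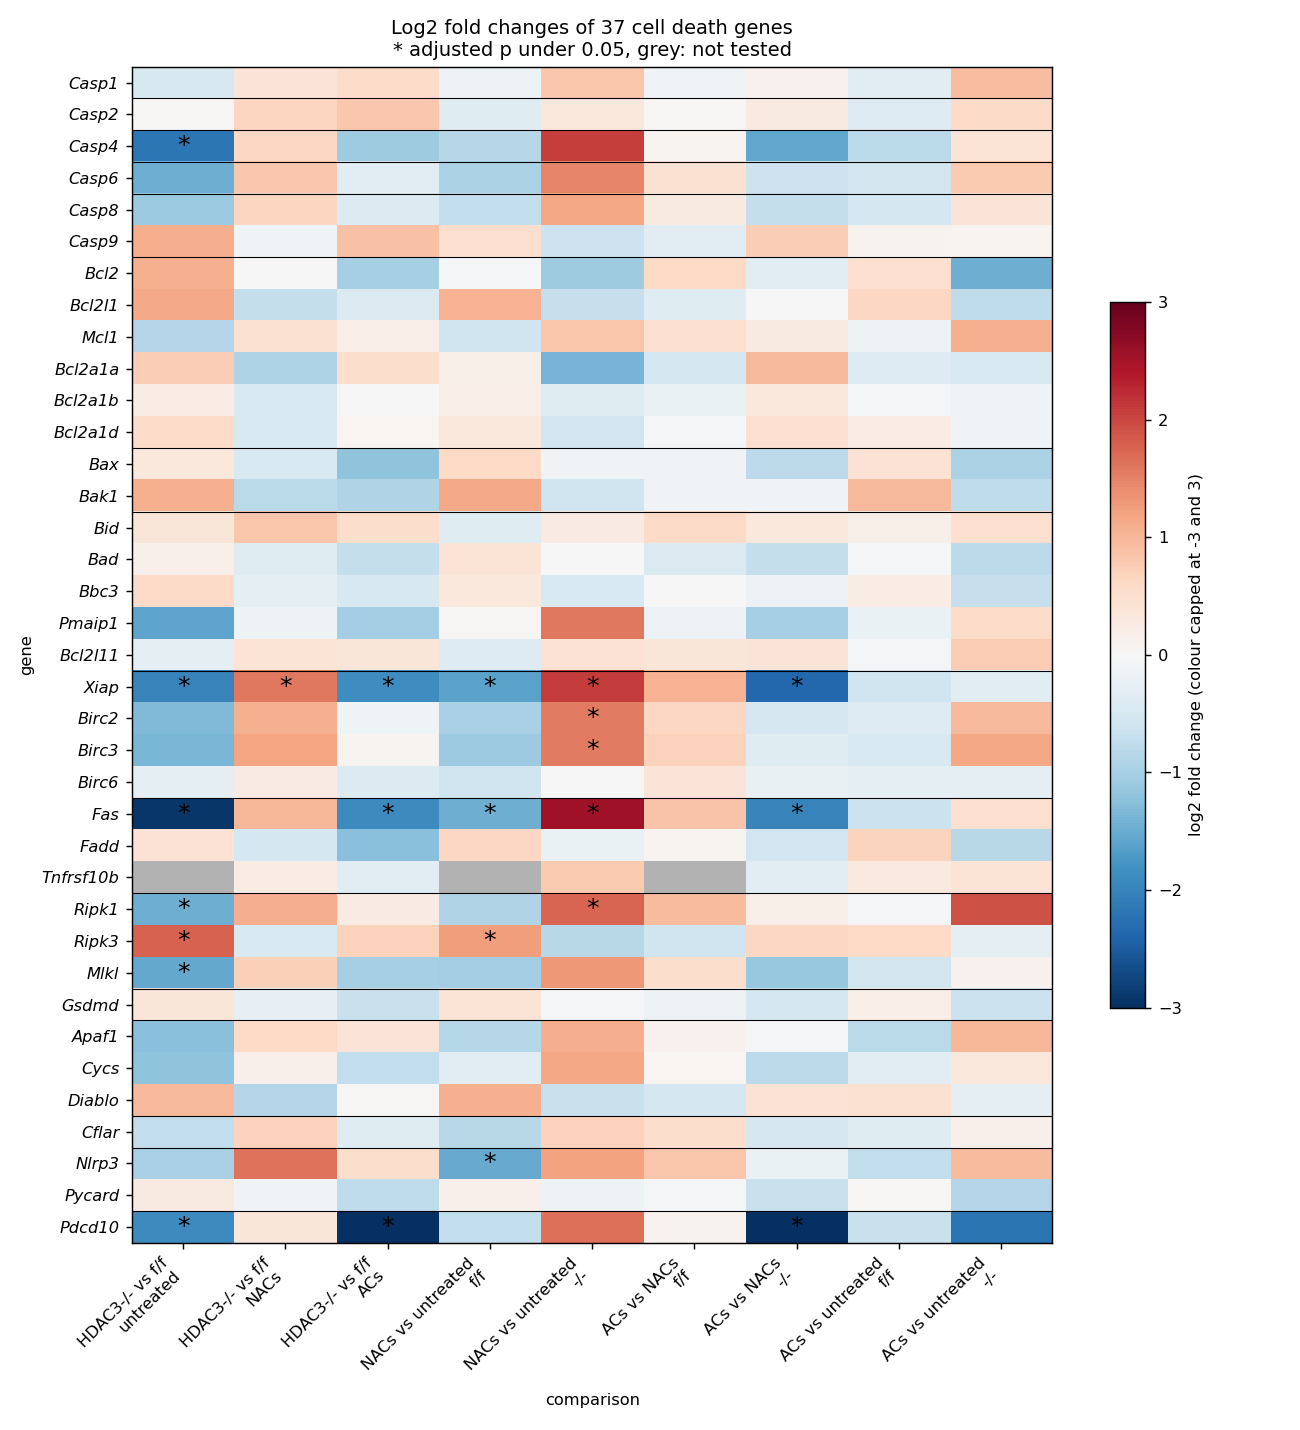
Log2 fold change of each gene (rows, grouped by role) in 9 pairwise comparisons (columns), red higher and blue lower in the first-named group, colours capped at -3 and 3; stars mark an adjusted p below 0.05 and grey cells were not tested. Xiap carries a star in 6 of the columns, and the star in the NACs genotype column is the only one on a higher value for that gene between genotypes.

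Pdcd10 gave the widest gap between genotypes with ACs. Its protein is a subunit of kinase and phosphatase complexes at the Golgi and the cell cortex and is best known as a gene of cerebral cavernous malformations. Pdcd10 stood at 179, 186 and 249 CPM in untreated HDAC3f/f BMDMs, 90.0, 220.0 and 70.0 CPM with NACs and 253, 33.1 and 114 CPM with ACs. Pdcd10 in HDAC3-/- BMDMs stood at 75.0, 78.0 and 18.0 CPM untreated, 175, 176 and 129 CPM with NACs and 5.96, 15.1 and 13.6 CPM with ACs. With ACs the 3 HDAC3-/- libraries all lay below the lowest HDAC3f/f library, at 11.5 ± 4.88 against 133 ± 111 CPM (mean ± SD, n = 3), 11.8-fold lower (log2 fold change -3.56 ± 0.66 (SE), adjusted p = 0.0212). The same HDAC3-/- libraries with ACs were also below all 3 with NACs (log2 fold change -3.78 ± 0.44 (SE), adjusted p = 1.46e-05). DESeq2's Wald test, but not edgeR, called Pdcd10 higher with NACs than untreated in HDAC3-/- BMDMs (1.43, adjusted p = 0.0464). Untreated HDAC3-/- BMDMs held less Pdcd10 than untreated HDAC3f/f BMDMs as well (log2 fold change -1.90 ± 0.54 (SE), adjusted p = 0.0415), whereas with NACs the genotypes overlapped (log2 fold change 0.36 ± 0.38 (SE), adjusted p = 0.542). In HDAC3f/f BMDMs, ACs against NACs gave 0.11 (adjusted p = 0.976), and the interaction of genotype with ACs or NACs gave -3.87 ± 0.83 (SE, adjusted p = 0.0561), just outside the threshold by edgeR and past it by DESeq2's Wald test (-3.88, adjusted p = 0.000583). The adjusted p between genotypes with ACs was 0.313 without HDAC3-/- ACs replicate 1 and 0.0597 without replicate 3, and that between ACs and NACs in HDAC3-/- BMDMs was 0.0694 without replicate 1.

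Between genotypes, edgeR called both Pdcd10 and Fas lower in HDAC3-/- BMDMs with ACs and untreated. With an offset for GC content and exon length, only the Pdcd10 call with ACs was kept. The 250 bases before the start sites of these genes, chosen by the calls without the offset, are shown. They come from RefSeq on build GRCm38.p6, 5′ to 3′ on the strand of the gene, where 34 of the 37 genes had an entry, and Xiap is left out because it has several listed starts. Capitals mark the letters CCAAT or GGGCGG on either strand, so that ATTGG and CCGCCC are also matches.
Pdcd10, minus strand, chr3:75556853-75557102: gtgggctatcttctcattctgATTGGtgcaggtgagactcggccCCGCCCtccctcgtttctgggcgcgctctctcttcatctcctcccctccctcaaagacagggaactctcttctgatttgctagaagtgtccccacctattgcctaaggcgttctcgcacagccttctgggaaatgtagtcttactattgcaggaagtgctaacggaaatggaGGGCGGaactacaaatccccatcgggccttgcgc
Fas, plus strand, chr19:34290409-34290658: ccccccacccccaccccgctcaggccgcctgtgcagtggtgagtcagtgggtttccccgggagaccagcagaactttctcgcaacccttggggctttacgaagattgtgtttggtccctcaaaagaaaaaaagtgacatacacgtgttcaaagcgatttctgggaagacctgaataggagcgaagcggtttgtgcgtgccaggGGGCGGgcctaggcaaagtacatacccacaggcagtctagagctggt
The Pdcd10 window held 1 match to CCAAT, on the minus strand of the window, and 2 to GGGCGG, and the Fas window held 1 match to GGGCGG, 47 bases before the start. Of 32851 such windows in the table, 33.8% held CCAAT and 32.7% held GGGCGG. Neither window held TATAAA (in 12.4% of windows), the interferon response motif, GAAA and a second GAAA 2 bases on (2.98%) or the kappaB motif (7.25%). The windows contained 54.8% and 56.4% GC.

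Of the caspase inhibitors, Xiap was called in the most comparisons. It binds and blocks caspases 3, 7 and 9 directly, and it was called in 6 of the 9 pairwise comparisons and in 2 interactions. Xiap stood at 37.1, 33.7 and 44.8 CPM in untreated HDAC3f/f BMDMs, 8.41, 18.5 and 12.0 CPM with NACs and 39.6, 16.8 and 22.7 CPM with ACs. Xiap in HDAC3-/- BMDMs stood at 14.8, 10.8 and 5.32 CPM untreated, 50.9, 32.6 and 31.9 CPM with NACs and 4.00, 12.4 and 5.75 CPM with ACs. Between genotypes, untreated HDAC3-/- libraries all lay below HDAC3f/f (log2 fold change -1.998 ± 0.46 (SE), adjusted p = 0.0286), those with NACs all lay above (log2 fold change 1.59 ± 0.36 (SE), adjusted p = 0.0416), and those with ACs all lay below again (log2 fold change -1.86 ± 0.51 (SE), adjusted p = 0.0476). Within HDAC3f/f BMDMs, NACs lowered Xiap against untreated (log2 fold change -1.62 ± 0.38 (SE), adjusted p = 0.0125), and within HDAC3-/- BMDMs they raised it (log2 fold change 2.09 ± 0.47 (SE), adjusted p = 0.0397). ACs against NACs gave -2.36 ± 0.45 (SE, adjusted p = 0.00247) in HDAC3-/- and 1.05 ± 0.42 (SE, adjusted p = 0.898) in HDAC3f/f BMDMs. The difference between those effects was -3.40 ± 0.64 (SE, adjusted p = 0.0422), and the corresponding difference for NACs against untreated was 3.84 ± 0.60 (SE, adjusted p = 0.000655). With an offset for GC content and exon length, 4 of the 6 pairwise calls were lost: the genotypes gave -0.91 (adjusted p = 0.235) untreated and 1.12 (adjusted p = 0.163) with NACs, and NACs against untreated -0.89 (adjusted p = 0.195) in HDAC3f/f and 1.22 (adjusted p = 0.136) in HDAC3-/- BMDMs.

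Xiap's genotype difference with ACs was past the threshold without HDAC3f/f ACs replicate 2 (adjusted p = 0.013) or 3 (0.0438) or HDAC3-/- ACs replicate 2 (0.00726), and not without HDAC3f/f ACs replicate 1 (0.126) or HDAC3-/- ACs replicate 1 (0.323) or 3 (0.104). With NACs it passed without HDAC3f/f NACs replicate 2 or HDAC3-/- NACs replicate 3 and for no other library left out. Its interaction of genotype with ACs or NACs had an adjusted p of 0.00774 to 0.149 over the 12 libraries left out in turn and was past the threshold in 4 of them.

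Birc2 and Birc3 encode the cellular inhibitors of apoptosis, ubiquitin ligases that act on Ripk1. Birc2 stood at 8.69, 7.81 and 10.00 CPM in untreated HDAC3f/f BMDMs, 2.91, 8.31 and 2.80 CPM with NACs and 8.39, 5.89 and 7.01 CPM with ACs. Birc2 in HDAC3-/- BMDMs stood at 4.03, 3.63 and 3.63 CPM untreated, 9.18, 9.26 and 10.6 CPM with NACs and 10.3, 5.43 and 4.33 CPM with ACs. Birc2 was lowest in untreated HDAC3-/- BMDMs and in HDAC3f/f NACs replicates 1 and 3. Birc3 stood at 23.8, 29.6 and 16.0 CPM in untreated HDAC3f/f BMDMs, 7.06, 18.1 and 8.89 CPM with NACs and 21.2, 15.0 and 18.3 CPM with ACs. Birc3 in HDAC3-/- BMDMs stood at 11.1, 8.63 and 9.75 CPM untreated, 26.4, 23.7 and 26.7 CPM with NACs and 28.6, 21.4 and 8.79 CPM with ACs. In HDAC3-/- BMDMs both rose with NACs over untreated, Birc2 by 1.55 ± 0.37 (SE, adjusted p = 0.0438) and Birc3 by 1.57 ± 0.34 (SE, adjusted p = 0.0382) on the log2 scale, without overlap between the 3 libraries of each group. Both differed between genotypes in that response (interaction 2.63 ± 0.63 (SE, adjusted p = 0.00429) and 2.80 ± 0.59 (SE, adjusted p = 0.00206)). Neither rise in HDAC3-/- BMDMs was called with an offset for GC content and exon length, at 0.62 (adjusted p = 0.353) for Birc2 and 1.13 (adjusted p = 0.13) for Birc3. Between untreated genotypes DESeq2's Wald test called both lower in HDAC3-/- BMDMs, Birc2 at -1.21 (adjusted p = 0.037) and Birc3 at -1.23 (adjusted p = 0.0285). With ACs neither was called between genotypes, at -0.13 (adjusted p = 0.886) and 0.07 (adjusted p = 0.94). HDAC3-/- ACs replicate 1 was the highest of its group for both.

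Cflar encodes c-FLIP, the decoy that keeps caspase-8 from full activation. Cflar stood at 25.7, 22.9 and 24.1 CPM in untreated HDAC3f/f BMDMs, 11.3, 16.5 and 14.5 CPM with NACs and 23.4, 16.3 and 19.7 CPM with ACs. Cflar in HDAC3-/- BMDMs stood at 17.6, 15.9 and 13.0 CPM untreated, 24.7, 21.7 and 20.3 CPM with NACs and 10.7, 26.6 and 9.12 CPM with ACs. It was called in no pairwise comparison, and only its interaction for NACs against untreated passed (1.67 ± 0.49 (SE, adjusted p = 0.0135)). Birc6, a giant ubiquitin ligase, ranged from 9.65 to 69.4 CPM in untreated HDAC3-/- BMDMs, the high end being replicate 1, and had log2 fold changes between -0.61 and 0.39 in the 9 pairwise comparisons, with none called.

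The death receptor Fas had low levels and large differences. Fas stood at 30.2, 14.9 and 18.4 CPM in untreated HDAC3f/f BMDMs, 6.50, 14.9 and 2.61 CPM with NACs and 25.4, 6.97 and 10.4 CPM with ACs. Fas in HDAC3-/- BMDMs stood at 3.02, 2.96 and 3.03 CPM untreated, 16.9, 17.8 and 12.3 CPM with NACs and 5.35, 3.28 and 2.97 CPM with ACs. The 3 untreated HDAC3-/- libraries were nearly equal and all below HDAC3f/f, 7.55-fold lower by the fit (log2 fold change -2.92 ± 0.46 (SE), adjusted p = 0.0183). With ACs the HDAC3-/- libraries again lay below all 3 HDAC3f/f libraries (log2 fold change -1.92 ± 0.52 (SE), adjusted p = 0.0472), and below all 3 with NACs (log2 fold change -1.996 ± 0.42 (SE), adjusted p = 0.00501). NACs against untreated lowered Fas in HDAC3f/f BMDMs (log2 fold change -1.46 ± 0.45 (SE), adjusted p = 0.0399), with the highest NACs library nearly equal to the lowest untreated one. The same contrast raised it in HDAC3-/- BMDMs (log2 fold change 2.55 ± 0.37 (SE), adjusted p = 0.0353), and the difference between these responses was 4.13 ± 0.71 (SE, adjusted p = 0.000808). For ACs against NACs the difference between genotypes was -2.84 ± 0.76 (SE, adjusted p = 0.0673), outside the threshold by edgeR and past it by DESeq2's Wald test (-2.87, adjusted p = 0.011). The genotype call with ACs was lost without HDAC3f/f ACs replicate 1 (log2 fold change -1.19, adjusted p = 0.215), HDAC3-/- ACs replicate 1 (0.313) or replicate 3 (0.0997). That call was also lost by limma-voom (log2 fold change -1.70, adjusted p = 0.0744), by library totals alone (-1.89, adjusted p = 0.0871) and with the replicate block (-1.77, adjusted p = 0.0675). The log2 fold change of Fas for NACs against untreated in HDAC3f/f BMDMs was -2.29 without HDAC3f/f NACs replicate 2 (adjusted p = 0.00119), against -1.46 with all libraries.

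Fadd, the adaptor between Fas and caspase-8, was called by DESeq2's Wald test (-1.23, adjusted p = 0.0443) and not by edgeR between genotypes with ACs. Its level with ACs was 38.1 ± 18.7 CPM in HDAC3-/- against 86.8 ± 12.2 in HDAC3f/f BMDMs (mean ± SD, n = 3), without overlap but outside the threshold (log2 fold change -1.26 ± 0.42 (SE), adjusted p = 0.0839), and untreated it was 0.42 (adjusted p = 0.463). Tnfrsf10b gave log2 fold changes of -0.33 to 0.79 in the pairwise comparisons that tested it, on 0 to 19 counts a library, and was not called.

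In necroptosis, the 3 calls between untreated genotypes were not all of 1 direction. Ripk1, a kinase at the branch of survival and death downstream of TNF receptors, was lower in untreated HDAC3-/- BMDMs, Ripk3, the kinase that activates Mlkl, was higher, and Mlkl, the membrane executioner, was lower. Each of these calls was kept in 1 of 6 fits that left out a library. With an offset for GC content and exon length all 3 were lost, at -0.865 (adjusted p = 0.284) for Ripk1, 1.02 (adjusted p = 0.29) for Ripk3 and -1.15 (adjusted p = 0.139) for Mlkl. Ripk1 stood at 20.5, 29.0 and 23.6 CPM in untreated HDAC3f/f BMDMs, 8.29, 19.7 and 12.5 CPM with NACs and 22.96, 26.5 and 27.2 CPM with ACs. Ripk1 in HDAC3-/- BMDMs stood at 5.28, 10.5 and 12.1 CPM untreated, 29.7, 28.9 and 25.9 CPM with NACs and 65.1, 15.9 and 14.3 CPM with ACs. These gave log2 fold change -1.46 ± 0.44 (SE), adjusted p = 0.0483 for the untreated genotypes, without overlap. In HDAC3-/- BMDMs Ripk1 was higher with NACs than untreated (log2 fold change 1.75 ± 0.39 (SE), adjusted p = 0.0382). With ACs, HDAC3-/- replicate 1 stood far above the other libraries, and the genotypes gave 0.25 (adjusted p = 0.787).

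Ripk3 stood at 3.38, 5.33 and 9.06 CPM in untreated HDAC3f/f BMDMs, 14.3, 9.31 and 19.9 CPM with NACs and 4.72, 14.3 and 9.09 CPM with ACs. Ripk3 in HDAC3-/- BMDMs stood at 8.80, 28.5 and 24.9 CPM untreated, 8.01, 11.9 and 11.4 CPM with NACs and 17.5, 7.57 and 23.1 CPM with ACs. Untreated, Ripk3 was higher in HDAC3-/- BMDMs by the fit (log2 fold change 1.76 ± 0.53 (SE), adjusted p = 0.0478), although HDAC3-/- replicate 1 fell below the highest HDAC3f/f library and the exact permutation test of log2(CPM + 1) gave p = 0.2 (two-sided, n = 3 a group). NACs raised Ripk3 in HDAC3f/f BMDMs over untreated (log2 fold change 1.25 ± 0.41 (SE), adjusted p = 0.0448), with the lowest NACs and the highest untreated library nearly equal. Mlkl stood at 31.7, 25.9 and 43.6 CPM in untreated HDAC3f/f BMDMs, 10.2, 31.0 and 9.52 CPM with NACs and 33.5, 20.6 and 17.3 CPM with ACs. Mlkl in HDAC3-/- BMDMs stood at 11.8, 11.6 and 13.7 CPM untreated, 30.8, 34.5 and 16.9 CPM with NACs and 17.2, 8.79 and 11.2 CPM with ACs. Mlkl was lower in untreated HDAC3-/- than HDAC3f/f BMDMs without overlap (log2 fold change -1.53 ± 0.40 (SE), adjusted p = 0.0338). With ACs the 3 HDAC3-/- libraries again lay below the 3 HDAC3f/f libraries, but the call was missed (log2 fold change -1.004 ± 0.44 (SE), adjusted p = 0.167). In HDAC3-/- BMDMs DESeq2's Wald test called Mlkl lower with ACs than NACs (-1.17, adjusted p = 0.0438). It also called Mlkl higher there with NACs than untreated (1.13, adjusted p = 0.0349). All 3 genes had an interaction for NACs against untreated: 2.79 ± 0.57 (SE, adjusted p = 0.00182) for Ripk1, 2.45 ± 0.62 (SE, adjusted p = 0.0058) for Mlkl, and -1.96 ± 0.64 (SE, adjusted p = 0.0215) for Ripk3, the last in the opposite direction. With an offset for GC content and exon length, Ripk1 (1.78, adjusted p = 0.018) and Mlkl (1.96, adjusted p = 0.0239) kept that call. Ripk3 lost it (-0.82, adjusted p = 0.321).

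For single values, 3 libraries against 3 cannot give an exact permutation p below 0.1 (two-sided), and p = 0.1 was the value for all the called pairs whose groups did not overlap. Among the 23 called pairwise values, 2 had overlapping groups: Ripk3 in untreated BMDMs between genotypes and Nlrp3 in HDAC3f/f BMDMs with NACs against untreated.

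**Figure D3:**
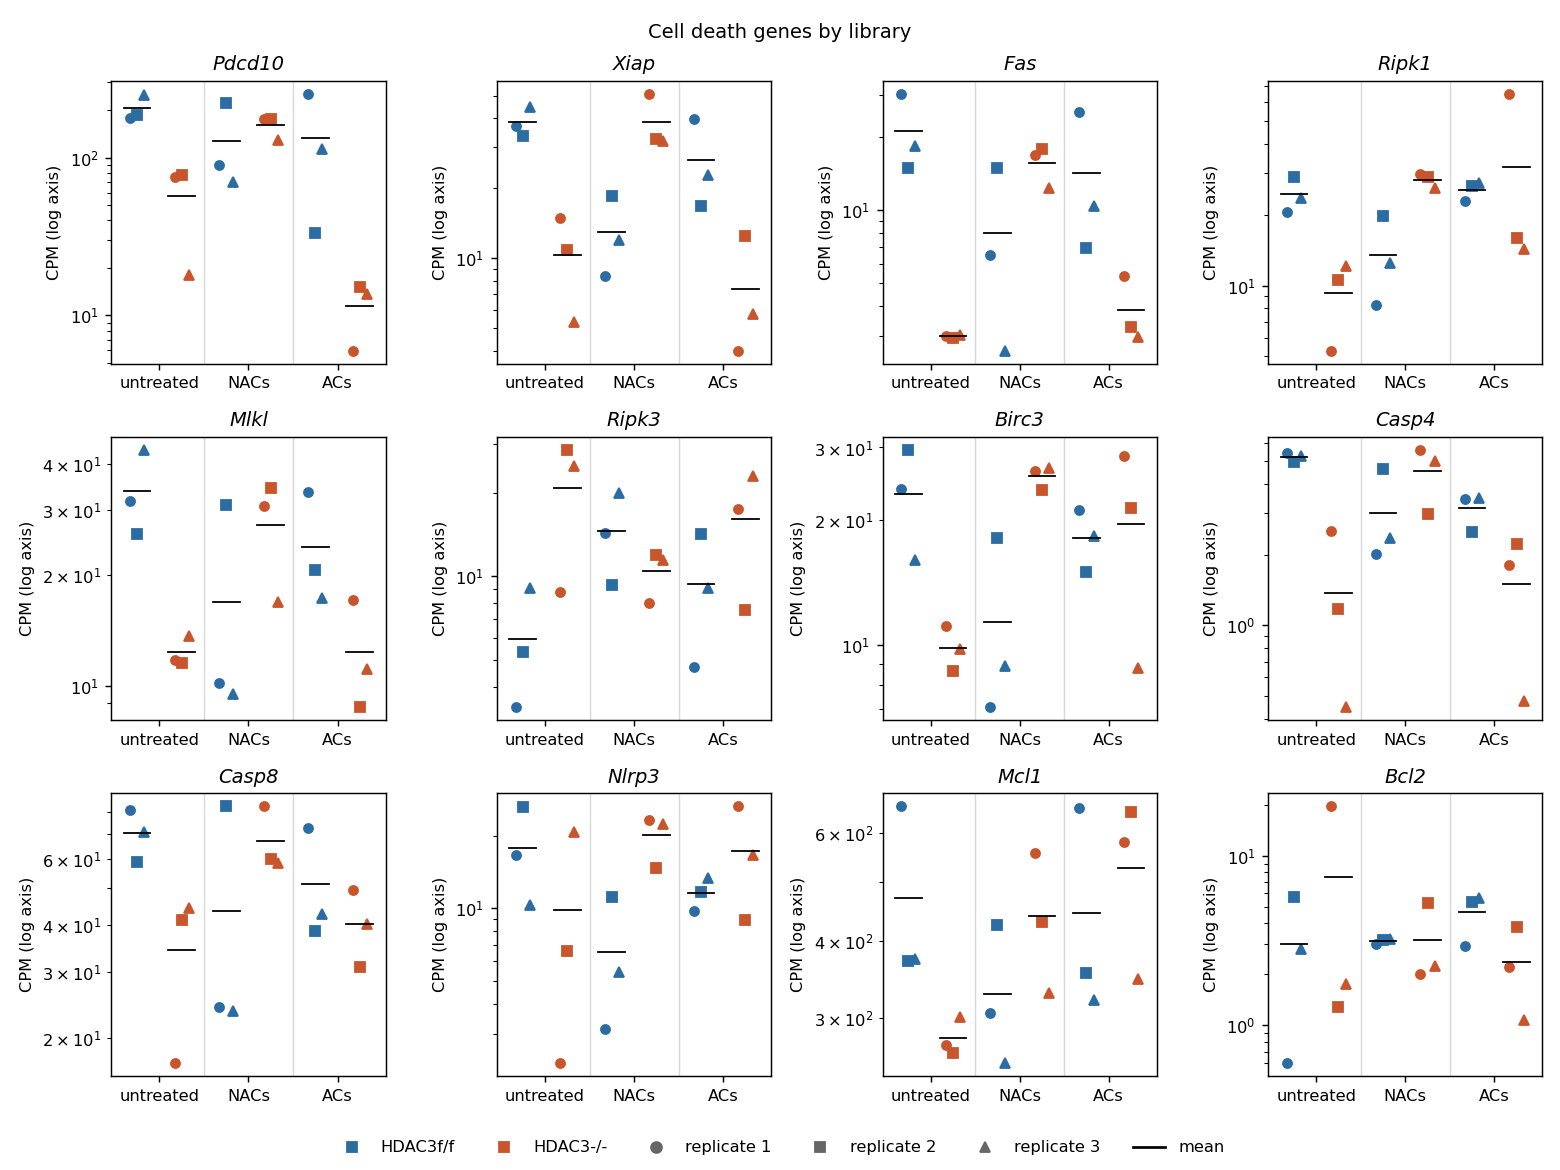
CPM (log axis) of 12 genes in each of the 18 libraries by treatment, blue HDAC3f/f and orange HDAC3-/-, the symbol giving the replicate and the black line the mean of 3. Pdcd10, Xiap and Fas in HDAC3-/- BMDMs are low untreated and with ACs and high with NACs, and Ripk3 has its highest values in untreated HDAC3-/- BMDMs.

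Among the caspases, no member was called between genotypes with ACs, beside 3.75% of all genes. Casp4, the caspase-11 gene of the non-canonical inflammasome, was the only one called by edgeR in a pairwise comparison, while DESeq2's Wald test added Casp6, lower in untreated HDAC3-/- BMDMs (-1.36, adjusted p = 0.0242) and higher there with NACs than untreated (1.26, adjusted p = 0.0178). The Wald test also called Casp4 in HDAC3-/- BMDMs, for ACs against NACs (-1.585, adjusted p = 0.0471) and for NACs against untreated (1.85, adjusted p = 0.0365). Casp4 stood at 5.44, 4.96 and 5.27 CPM in untreated HDAC3f/f BMDMs, 2.02, 4.65 and 2.36 CPM with NACs and 3.46, 2.496 and 3.505 CPM with ACs. Casp4 in HDAC3-/- BMDMs stood at 2.52, 1.18 and 0.448 CPM untreated, 5.59, 2.99 and 5.04 CPM with NACs and 1.81, 2.23 and 0.473 CPM with ACs. It was lower in untreated HDAC3-/- than HDAC3f/f BMDMs (log2 fold change -2.17 ± 0.64 (SE), adjusted p = 0.0456), resting on 9 to 96 counts a library. An offset for GC content and exon length moved this difference to -1.05 (adjusted p = 0.336). With ACs the HDAC3-/- libraries also lay below the HDAC3f/f libraries, at -1.07 (adjusted p = 0.299), outside the threshold. Casp1, the interleukin-1 beta converting enzyme, was not called anywhere. Casp1 stood at 18.7, 18.7 and 34.6 CPM in untreated HDAC3f/f BMDMs, 17.9, 33.0 and 14.2 CPM with NACs and 16.5, 21.1 and 21.9 CPM with ACs. Casp1 in HDAC3-/- BMDMs stood at 10.1, 21.4 and 21.7 CPM untreated, 26.6, 26.2 and 30.9 CPM with NACs and 45.6, 22.8 and 22.9 CPM with ACs. With ACs the HDAC3-/- libraries lay above the HDAC3f/f libraries by a small margin, and the fit gave log2 fold change 0.56 ± 0.42 (SE), adjusted p = 0.424.

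Casp8, the initiator that Fas and Fadd recruit, was not called in a pairwise comparison. Casp8 stood at 81.0, 58.6 and 70.5 CPM in untreated HDAC3f/f BMDMs, 24.1, 82.7 and 23.6 CPM with NACs and 72.3, 38.6 and 42.8 CPM with ACs. Casp8 in HDAC3-/- BMDMs stood at 17.1, 41.1 and 44.3 CPM untreated, 82.8, 59.7 and 58.5 CPM with NACs and 49.6, 31.0 and 40.3 CPM with ACs. Untreated, all HDAC3-/- libraries were below all HDAC3f/f libraries (-1.12 (adjusted p = 0.0956)), and its interaction for NACs against untreated passed (2.01 ± 0.65 (SE, adjusted p = 0.023)). Casp6, an effector caspase, was likewise not called by edgeR in a pairwise comparison. Casp6 stood at 27.5, 13.3 and 27.0 CPM in untreated HDAC3f/f BMDMs, 13.4, 15.1 and 7.84 CPM with NACs and 21.8, 12.2 and 14.5 CPM with ACs. Casp6 in HDAC3-/- BMDMs stood at 5.28, 9.86 and 10.4 CPM untreated, 22.3, 18.0 and 22.2 CPM with NACs and 15.9, 13.6 and 11.0 CPM with ACs. Its genotype difference was -1.47 (adjusted p = 0.0514) untreated and -0.30 (adjusted p = 0.685) with ACs, and its interaction for NACs against untreated was 2.51 ± 0.57 (SE, adjusted p = 0.00338). Casp9, the apoptosome caspase, had the largest genotype difference of the initiators with ACs without being called (log2 fold change 0.87 ± 0.42 (SE), adjusted p = 0.212). Casp9 stood at 11.7, 15.8 and 14.5 CPM in untreated HDAC3f/f BMDMs, 23.99, 16.2 and 21.96 CPM with NACs and 13.0, 17.9 and 17.1 CPM with ACs. Casp9 in HDAC3-/- BMDMs stood at 9.56, 34.6 and 51.7 CPM untreated, 17.1, 19.0 and 19.4 CPM with NACs and 35.1, 17.7 and 39.3 CPM with ACs. With ACs the lowest HDAC3-/- library lay just below the highest HDAC3f/f library. Casp2, an initiator of the response to mitotic and genotoxic stress, gave 0.81 (adjusted p = 0.24) with ACs and was not called anywhere.

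No member of the Bcl-2 family was called by edgeR in any of the 9 pairwise comparisons, in which 0.0% to 11.6% of all genes were called. By DESeq2's Wald test Bax was lower in HDAC3-/- BMDMs with ACs (-1.19, adjusted p = 0.0274) and Bcl2l1 higher in untreated HDAC3-/- BMDMs (1.25, adjusted p = 0.0155), and for NACs against untreated Bcl2l1 (1.15, adjusted p = 0.0346) and Bak1 (1.21, adjusted p = 0.0458) were higher in HDAC3f/f and Bcl2l1 lower in HDAC3-/- BMDMs (-0.87, adjusted p = 0.0454). Of the survival factors, Mcl1 had the highest median per kilobase, with a range that overlapped that of Bcl2a1b (21.7 to 129 CPM per kb). Mcl1 stood at 663, 371 and 374 CPM in untreated HDAC3f/f BMDMs, 305, 425 and 253 CPM with NACs and 659.5, 355 and 321 CPM with ACs. Mcl1 in HDAC3-/- BMDMs stood at 271, 264 and 301 CPM untreated, 557, 430.0 and 329 CPM with NACs and 580.4, 649.5 and 347 CPM with ACs. It was lower in all untreated HDAC3-/- than in all untreated HDAC3f/f libraries, at -0.87 (adjusted p = 0.143), and the groups with ACs overlapped (0.20 (adjusted p = 0.805)). Its interaction for NACs against untreated passed (1.54 ± 0.52 (SE, adjusted p = 0.0252)), although DESeq2 did not call it. Bcl2l1, which encodes Bcl-xL, went the other way. Bcl2l1 stood at 73.4, 72.5 and 137 CPM in untreated HDAC3f/f BMDMs, 286, 136 and 182 CPM with NACs and 121, 182 and 156 CPM with ACs. Bcl2l1 in HDAC3-/- BMDMs stood at 194, 219 and 239 CPM untreated, 109.9, 148 and 103 CPM with NACs and 97.5, 88.1 and 170.3 CPM with ACs. All 3 untreated HDAC3-/- libraries were above HDAC3f/f (1.13 (adjusted p = 0.0704)), and the interaction was -1.63 ± 0.50 (SE, adjusted p = 0.016).

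Bcl2, the founding survival factor, was scarce. Bcl2 stood at 0.597, 5.69 and 2.80 CPM in untreated HDAC3f/f BMDMs, 3.03, 3.20 and 3.23 CPM with NACs and 2.94, 5.38 and 5.65 CPM with ACs. Bcl2 in HDAC3-/- BMDMs stood at 19.6, 1.28 and 1.74 CPM untreated, 2.00, 5.28 and 2.23 CPM with NACs and 2.19, 3.83 and 1.08 CPM with ACs. The high untreated value was that of HDAC3-/- replicate 1, the library that stood apart, and with ACs the fit gave log2 fold change -0.99 ± 0.56 (SE), adjusted p = 0.287. The Bcl2a1 copies are near-identical genes, so reads can be split or lost between them: 31.1% to 54.7% of the 100-base windows of their longest transcripts occur in another copy. Bcl2a1b held most of their reads, and 49.1% of its exon bases are shared with Gm29094 on the same strand. Bcl2a1b stood at 81.1, 23.3 and 62.3 CPM in untreated HDAC3f/f BMDMs, 86.2, 54.9 and 57.0 CPM with NACs and 105, 26.9 and 35.8 CPM with ACs. Bcl2a1b in HDAC3-/- BMDMs stood at 69.4, 88.3 and 45.9 CPM untreated, 72.5, 51.3 and 17.8 CPM with NACs and 50.03, 91.4 and 30.9 CPM with ACs. Its genotype difference with ACs was 0.02 (adjusted p = 0.988). Bcl2a1d stood at 2.32, 1.34 and 3.74 CPM in untreated HDAC3f/f BMDMs, 2.47, 3.66 and 3.36 CPM with NACs and 3.46, 2.43 and 3.18 CPM with ACs. Bcl2a1d in HDAC3-/- BMDMs stood at 3.52, 3.17 and 4.73 CPM untreated, 1.49, 3.09 and 2.38 CPM with NACs and 2.85, 4.75 and 1.96 CPM with ACs. The groups of Bcl2a1d overlapped between genotypes in every treatment. Bcl2a1a stood at 0.729, 0.672 and 1.48 CPM in untreated HDAC3f/f BMDMs, 1.68, 1.14 and 0.622 CPM with NACs and 1.47, 0.32 and 0.584 CPM with ACs. Bcl2a1a in HDAC3-/- BMDMs stood at 1.26, 1.18 and 2.64 CPM untreated, 0.559, 0.896 and 0.352 CPM with NACs and 0.462, 2.27 and 0.608 CPM with ACs. Neither of these copies was called in any comparison, and Bcl2a1a had at most 54 counts in a library.

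Bax and Bak1, which form the mitochondrial pore, had the 2 highest medians of the 37 genes per kilobase. Bax stood at 337, 318 and 449 CPM in untreated HDAC3f/f BMDMs, 763, 529.6 and 452 CPM with NACs and 455, 599 and 530.4 CPM with ACs. Bax in HDAC3-/- BMDMs stood at 709, 362 and 409.9 CPM untreated, 356, 515 and 378 CPM with NACs and 167, 278 and 266 CPM with ACs. With ACs all 3 HDAC3-/- libraries were below all 3 HDAC3f/f libraries, at 237 ± 60.7 against 528 ± 72.0 CPM (mean ± SD, n = 3), outside the threshold (log2 fold change -1.20 ± 0.40 (SE), adjusted p = 0.0867). Bak1 ranged from 101 to 320.5 CPM in untreated HDAC3f/f to 229.9 to 547 CPM in untreated HDAC3-/- BMDMs and was called by edgeR in the interaction for NACs against untreated and in no other comparison (-1.62 ± 0.60 (SE, adjusted p = 0.0393)). With an offset for GC content and exon length, that interaction was -0.13 (adjusted p = 0.875), and it was called in 5 of 12 fits that left out a library. Bak1 shares 18.2% of its exon bases with Ggnbp1 on the other strand, and Bax 12.2% with Gm45808 on its own.

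The BH3-only genes were not called in any comparison, interactions included, beside 0.0% to 34.8% of all genes. Bcl2l11, which encodes Bim, a main killer of myeloid and lymphoid cells, ranged from 25.7 to 63.6 CPM. Bcl2l11 stood at 53.4, 47.7 and 34.5 CPM in untreated HDAC3f/f BMDMs, 34.8, 33.1 and 41.9 CPM with NACs and 53.8, 41.1 and 43.1 CPM with ACs. Bcl2l11 in HDAC3-/- BMDMs stood at 25.7, 45.8 and 47.5 CPM untreated, 56.8, 48.9 and 36.0 CPM with NACs and 63.6, 60.9 and 59.0 CPM with ACs. With ACs the HDAC3-/- libraries all lay above HDAC3f/f by a small margin (log2 fold change 0.36 ± 0.38 (SE), adjusted p = 0.58). Pmaip1 had the largest genotype difference of this class with ACs. Pmaip1 stood at 1.66, 4.08 and 1.43 CPM in untreated HDAC3f/f BMDMs, 1.46, 2.21 and 4.11 CPM with NACs and 1.57, 2.62 and 2.60 CPM with ACs. Pmaip1 in HDAC3-/- BMDMs stood at 1.26, 0.869 and 0.597 CPM untreated, 1.63, 2.79 and 2.54 CPM with NACs and 0.808, 1.73 and 0.879 CPM with ACs. That difference was -1.02 (adjusted p = 0.334), on 13 to 41 counts a library. Bid, which caspase-8 cleaves, gave 0.52 (adjusted p = 0.497), Bad -0.71 (adjusted p = 0.278), and Bbc3, which encodes the p53 target Puma, -0.49 (adjusted p = 0.476). Bid shares 17.7% of its exon bases with Bcl2l13 and Bad 20.5% with Gpr137, both on the other strand.

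Apaf1, Cycs and Diablo were called by edgeR between genotypes in the response to NACs and in no other comparison of the genotypes, while DESeq2's Wald test also called Cycs between untreated genotypes (-1.09, adjusted p = 0.0446). The Wald test also called Diablo, higher with NACs than untreated in HDAC3f/f BMDMs (1.16, adjusted p = 0.0356). Apaf1 stood at 18.2, 19.8 and 13.2 CPM in untreated HDAC3f/f BMDMs, 8.29, 11.9 and 9.33 CPM with NACs and 10.9, 8.25 and 12.5 CPM with ACs. Apaf1 in HDAC3-/- BMDMs stood at 9.31, 8.63 and 5.37 CPM untreated, 16.6, 10.4 and 16.2 CPM with NACs and 20.2, 14.3 and 7.64 CPM with ACs. Apaf1 builds the apoptosome and Cycs encodes the cytochrome c that triggers it. Cycs stood at 28.8, 30.0 and 44.1 CPM in untreated HDAC3f/f BMDMs, 21.97, 32.1 and 30.4 CPM with NACs and 38.4, 18.2 and 29.0 CPM with ACs. Cycs in HDAC3-/- BMDMs stood at 10.8, 20.1 and 15.6 CPM untreated, 32.5, 33.5 and 26.5 CPM with NACs and 18.9, 18.8 and 15.4 CPM with ACs. Both were lower in all untreated HDAC3-/- than in all untreated HDAC3f/f libraries, at -1.25 (adjusted p = 0.0694) and -1.21 (adjusted p = 0.0683), without being called. Diablo stood at 13.1, 15.2 and 28.8 CPM in untreated HDAC3f/f BMDMs, 49.8, 27.6 and 45.6 CPM with NACs and 17.1, 36.4 and 29.5 CPM with ACs. Diablo in HDAC3-/- BMDMs stood at 29.9, 44.0 and 43.0 CPM untreated, 20.7, 23.9 and 20.7 CPM with NACs and 21.4, 30.0 and 36.6 CPM with ACs. Diablo, whose product releases caspases from Xiap, was higher in all untreated HDAC3-/- libraries (0.97 (adjusted p = 0.119)). The interactions for NACs against untreated were 2.10 ± 0.57 (SE, adjusted p = 0.00861) for Apaf1, 1.61 ± 0.50 (SE, adjusted p = 0.0177) for Cycs and -1.62 ± 0.52 (SE, adjusted p = 0.0202) for Diablo. With an offset for GC content and exon length that of Cycs was -0.10 (adjusted p = 0.899), of the opposite sign, and it was called in 4 of 12 fits that left out a library. With ACs the genotypes gave 0.38 (adjusted p = 0.636), -0.73 (adjusted p = 0.291) and 0.03 (adjusted p = 0.979) in the same order. Diablo shares 21.5% of its exon bases with B3gnt4 on the other strand.

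Of the inflammasome genes only the sensor Nlrp3 was called. Nlrp3 stood at 16.6, 26.3 and 10.3 CPM in untreated HDAC3f/f BMDMs, 3.14, 11.1 and 5.41 CPM with NACs and 9.75, 11.7 and 13.3 CPM with ACs. Nlrp3 in HDAC3-/- BMDMs stood at 2.26, 6.64 and 20.7 CPM untreated, 23.2, 14.7 and 22.3 CPM with NACs and 26.5, 8.96 and 16.6 CPM with ACs. It was lower with NACs than untreated in HDAC3f/f BMDMs (log2 fold change -1.50 ± 0.42 (SE), adjusted p = 0.0283), where the groups overlapped by 1 library each. Between genotypes with NACs all 3 HDAC3-/- libraries lay above HDAC3f/f, just outside the threshold by edgeR (log2 fold change 1.63 ± 0.41 (SE), adjusted p = 0.0546) though DESeq2's Wald test called it (adjusted p = 0.0183 for a log2 fold change of 1.61), and with ACs they overlapped (0.52 (adjusted p = 0.494)). Its interaction was 2.83 ± 0.89 (SE, adjusted p = 0.0219). Pycard encodes ASC, the adaptor that links Nlrp3 to caspase-1. Pycard stood at 84.1, 63.2 and 103 CPM in untreated HDAC3f/f BMDMs, 112, 90.6 and 85.6 CPM with NACs and 100.2, 84.6 and 84.3 CPM with ACs. Pycard in HDAC3-/- BMDMs stood at 158, 87.2 and 79.0 CPM untreated, 84.4, 92.8 and 85.5 CPM with NACs and 27.0, 74.5 and 60.5 CPM with ACs. With ACs all HDAC3-/- libraries were below HDAC3f/f (log2 fold change -0.77 ± 0.43 (SE), adjusted p = 0.271), which did not pass. Gsdmd stood at 107, 91.0 and 150.5 CPM in untreated HDAC3f/f BMDMs, 205, 130.1 and 146 CPM with NACs and 117, 173 and 129.8 CPM with ACs. Gsdmd in HDAC3-/- BMDMs stood at 109, 173 and 188 CPM untreated, 124, 141 and 135 CPM with NACs and 69.5, 71.2 and 137 CPM with ACs. Gsdmd, the pore that executes pyroptosis, gave -0.67 (adjusted p = 0.323) with ACs and was called nowhere.

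Called genes spanned a wide range of base composition. Pooled over the annotated transcripts of a gene, GC content was 38.5% for Pdcd10, 39.0% for Xiap, 41.0% for Casp4 and 43.8% for Fas. The median was 47.6% for the 37 genes and 50.3% for all genes tested with ACs. GC content was 54.1% for Ripk3, 53.9% for Bcl2l1 and 57.3% for Bak1. Other called genes lay near the median of the 37, such as Ripk1 (46.7%), Birc3 (47.6%), Mlkl (48.0%) and Casp6 (48.9%). The GC-poor Cycs (41.3%) and Birc2 (43.6%) were also among the called genes. The GC-poor Casp1 (41.1%) and Pmaip1 (41.6%, with 5 to 79 counts a library) were not called anywhere. Across genes, which are not independent replicates, GC content and the untreated genotype log2 fold change correlated at r = 0.67 over all genes with a GC value (n = 12080) and 0.58 over the members (n = 36). For NACs against untreated, r was 0.64 over all genes and 0.53 over members in HDAC3f/f, and -0.62 and -0.51 in HDAC3-/- BMDMs. For the genotypes with ACs it was 0.08 over all genes and 0.24 over members. The libraries themselves varied in this respect: each library's deviation from the mean of all 18 correlated with GC content at -0.60 (HDAC3f/f untreated replicate 2) to 0.56 (HDAC3-/- untreated replicate 2) over 13601 genes, and the 3 HDAC3f/f untreated and the 3 HDAC3-/- NACs libraries were all negative. The 3 HDAC3-/- untreated libraries were all positive (0.136, 0.559 and 0.554).

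When each library's trend over GC content and exon length was fitted as an offset, the calls among the 37 genes changed. With ACs, Pdcd10 and Xiap were still called between genotypes, at -2.44 (adjusted p = 0.0118) and -1.24 (adjusted p = 0.0361), Fas was not (-1.27 (adjusted p = 0.0671)), and Fadd was added, giving 3 of 37 beside 10.5% of all genes. In HDAC3-/- BMDMs with ACs against NACs, Pdcd10 and Xiap were again called (-2.54 (adjusted p = 0.00818) and -1.50 (adjusted p = 0.0251)) and Fas was not (-1.24 (adjusted p = 0.0565)), 2 of 37 beside 5.61% of all genes. The interaction of genotype with ACs or NACs then held Xiap and Pdcd10, 2 of 37 beside 2.16%. All calls between untreated genotypes, between genotypes with NACs and for NACs against untreated were lost, with 0.0% of all genes called by edgeR in each. Their log2 fold changes moved unequally: Nlrp3 for NACs against untreated in HDAC3f/f BMDMs was -1.53 (adjusted p = 0.195) against -1.50 without the offset, while between untreated genotypes Mlkl was -1.15 (adjusted p = 0.139) against -1.53, Fas -1.77 (adjusted p = 0.0863) against -2.92 and Pdcd10 -0.85 (adjusted p = 0.351) against -1.90. At an unadjusted p below 0.05 the offset fit then held 15 of the genes between untreated genotypes (beside 16.0% of all genes), 9 with NACs (16.2%), and for NACs against untreated 8 in HDAC3f/f (16.6%) and 14 in HDAC3-/- BMDMs (17.0%). For the interaction of genotype with NACs or untreated 9 of the 19 earlier calls remained, Casp6, Mcl1, Xiap, Birc3, Fas, Ripk1, Mlkl, Diablo and Nlrp3, 9 of 37 in all beside 12.4% of all genes. The part of base composition in these differences was not tested.

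**Figure D4:**
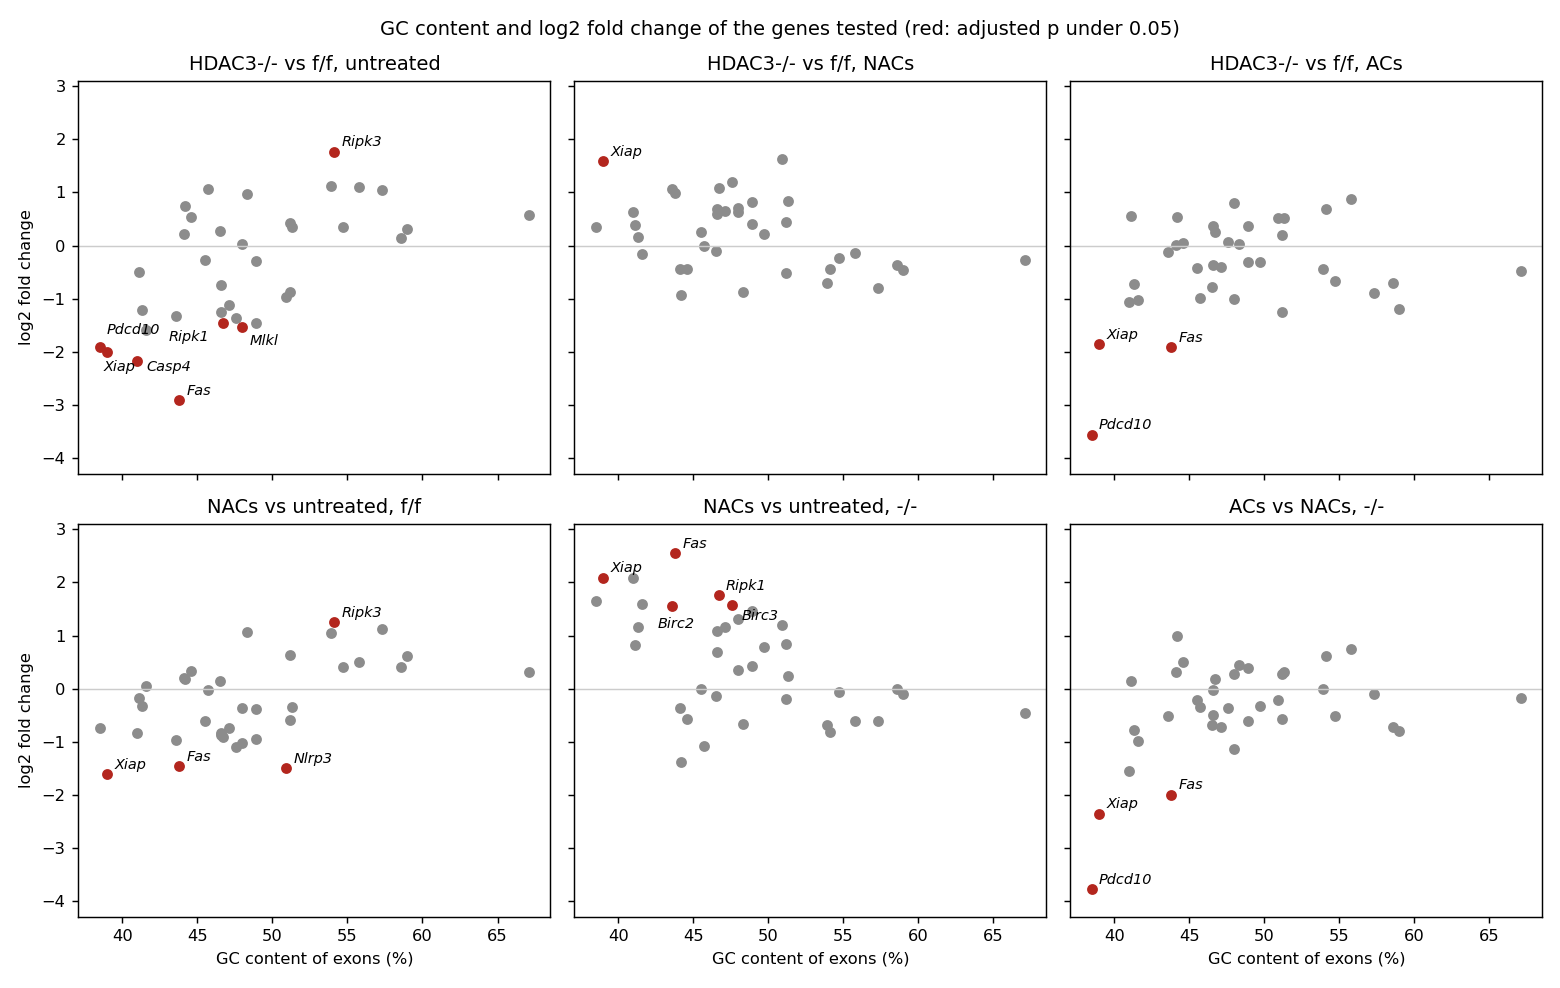
GC content (percent) against log2 fold change for the genes tested in 6 comparisons, 1 point a gene, red and named where the adjusted p was below 0.05. GC content, which the axis gives as that of exons, was pooled over the annotated transcripts of a gene. Untreated, the GC-poor genes Pdcd10, Xiap, Casp4 and Fas lie low and Ripk3 lies high, and the slope turns round for NACs against untreated in HDAC3-/- BMDMs.

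Related genes outside the 37 were read from 3 further lists. Of 38 other cell death genes, 33 or 34 were tested, and 1 was called between genotypes with ACs: Endog, a mitochondrial nuclease, was lower in HDAC3-/- BMDMs (log2 fold change -2.21 ± 0.42 (SE), adjusted p = 0.0153), beside 2.96% of all genes. In untreated BMDMs 5 of 34 were lower in HDAC3-/- (beside 8.56% of all genes) and 0 higher, among them Nek7, the kinase that licenses Nlrp3 (log2 fold change -2.19 ± 0.47 (SE), adjusted p = 0.0232), Aim2, a sensor of cytosolic DNA (log2 fold change -2.07 ± 0.52 (SE), adjusted p = 0.0315), and Acsl4, which loads membranes for ferroptosis (log2 fold change -1.85 ± 0.47 (SE), adjusted p = 0.0327). ACs against NACs in HDAC3-/- BMDMs lowered 2 of 34 (beside 4.73% of all genes), Nek7 (log2 fold change -1.83 ± 0.46 (SE), adjusted p = 0.0162) and Aim2 (log2 fold change -1.50 ± 0.42 (SE), adjusted p = 0.0295). Their median log2 fold change between genotypes with ACs was -0.07. NACs against untreated lowered 7 of 34 in HDAC3f/f (beside 4.33% of all genes) and raised 3 of 34 in HDAC3-/- BMDMs (beside 6.2%), and the interaction of the 2 was called for 19 of 34 (55.9%), 16 more positive and 3 more negative, beside 51.4% of the 37 genes and 34.8% of all genes.

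Fas, Bbc3 and Pmaip1 are known targets of p53, and Birc3, Cflar and the Bcl2a1 copies of NF-kappaB, so targets of each were listed. Of 12 p53 targets 10 were tested with ACs and 0 were called between genotypes, with 2 at an unadjusted p below 0.05, beside 3.75% and 2988 of 12304 of all genes. In untreated BMDMs only Ccng1 was called, which was lower in HDAC3-/- (log2 fold change -1.89 ± 0.41 (SE), adjusted p = 0.0245), beside 8.56% of all genes. Of 16 NF-kappaB targets 14 were tested with ACs and 0 were called between genotypes, with 4 at an unadjusted p below 0.05. In that comparison 3.75% of all genes were called and 2988 of 12304 had an unadjusted p below 0.05. With ACs against NACs in HDAC3-/- BMDMs 1 NF-kappaB target was lower, the chemokine gene Cxcl2 (log2 fold change -2.61 ± 0.49 (SE), adjusted p = 0.00229), beside 4.73% of all genes. For NACs against untreated in HDAC3f/f BMDMs 2 of 15 NF-kappaB targets were lower, Tnfaip3 (log2 fold change -1.37 ± 0.41 (SE), adjusted p = 0.0322) and Cxcl2 (log2 fold change -1.46 ± 0.48 (SE), adjusted p = 0.0439), beside 4.33% of all genes. The interaction for NACs against untreated was called for 6 of 15 NF-kappaB targets (4 more positive and 2 more negative) and for 3 of 10 p53 targets (1 and 2), beside 34.8% of all genes. Ccng1 was also the p53 target called for ACs against NACs in HDAC3-/- (log2 fold change -1.40 ± 0.42 (SE), adjusted p = 0.0385) and for NACs against untreated in HDAC3f/f (log2 fold change -1.31 ± 0.38 (SE), adjusted p = 0.0283) and HDAC3-/- BMDMs (log2 fold change 1.78 ± 0.39 (SE), adjusted p = 0.0382).

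Markers of other cells were called in several of these comparisons. Of 10 fibroblast markers 9 were tested in HDAC3-/- BMDMs with ACs against NACs. Of these, 3 were higher with ACs (Col1a2, Col3a1 and Thy1), beside 2.65% of all genes. The sum of the 10 in HDAC3-/- BMDMs was 99.2 to 270.4 CPM with ACs against 9.32 to 54.8 CPM with NACs. Of 12 granulocyte markers Ltf alone was called there, also higher (log2 fold change 1.38 ± 0.41 (SE), adjusted p = 0.0382). The part of such cells in the lower Pdcd10, Xiap and Fas there was not tested, and in bulk RNA fewer cells of a type cannot be told from less RNA in each cell. Between genotypes with ACs, 1 of 11 granulocyte markers (Elane) and 1 of 4 erythroid genes tested (Nfe2) were lower in HDAC3-/-, beside 2.96% of all genes. Of 9 fibroblast markers 0 were called there, beside 3.75% of all genes. For NACs against untreated, Cd79b, 1 of 3 B cell genes tested, was higher in HDAC3f/f BMDMs (log2 fold change 1.63 ± 0.48 (SE), adjusted p = 0.0308), beside 4.19% of all genes. Thy1, 1 of 8 fibroblast markers tested, was lower in HDAC3-/- BMDMs (log2 fold change -2.52 ± 0.58 (SE), adjusted p = 0.0412), beside 0.338% of all genes. In the interaction of the 2, 19 of the 37 genes were called, beside 34.8% of all genes, 12.8% more negative. More negative in HDAC3-/- BMDMs were 2 of 4 B cell genes tested (Cd79a and Cd79b), 2 of 9 fibroblast markers (Thy1 and Fbln1) and 1 of 12 granulocyte markers (Ltf). Batf3, the 1 dendritic cell gene tested, was also more negative. The part of these markers in the result was not tested. Of 12 proliferation genes, Plk1 was higher in untreated HDAC3-/- than HDAC3f/f BMDMs, beside 3.04% of all genes. Plk1 and Mcm2 rose with NACs over untreated in HDAC3f/f BMDMs (4.19%), and Pcna did so in HDAC3-/- BMDMs (6.2%). Plk1 was also higher with ACs than NACs in HDAC3-/- BMDMs (2.65%). The interaction for NACs against untreated was called for 3 of the 12, 1 more positive and 2 more negative (34.8%). Their part was not tested either.

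The macrophage markers did not move one way. Between untreated genotypes 5 of 10 had a positive and 5 a negative log2 fold change (median 0.12). Of the 10, 2 were called, Lyz2 and Mrc1, both lower in HDAC3-/- BMDMs, beside 11.6% of all genes, 8.56% lower. With an offset for GC content and exon length 0.0% of all genes were called there. The Lyz2 locus also drives the Cre recombinase in M-HDAC3-/- mice. The sum of the 10 was 28520 to 54295 CPM in untreated HDAC3-/- against 16946 to 31558 CPM in untreated HDAC3f/f libraries, so the groups overlapped. Lyz2 and Mrc1 were also the 2 of 10 called for NACs against untreated in HDAC3-/- BMDMs. Both were higher with NACs, beside 6.2% of all genes in that contrast (0.0% called with the offset). Of the 10 markers 4 had a positive and 6 a negative log2 fold change in that contrast (median -0.30). Its interaction with genotype was called for 5 of 10, beside 34.8% of all genes. Of these, 3 were more positive (among them Lyz2 at 3.39 and Mrc1 at 2.90) and 2 more negative (among them Cd14 at -1.82).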

How the data were processed

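Total RNA of 18 BMDM libraries was sequenced from NEBNext Ultra II libraries. The authors deposited whole-number read counts per gene, made, per their processing notes, with Trimmomatic 0.36, STAR 2.5.2b and featureCounts of Subread 1.5.2 on mouse build GRCm38, so human K562 reads were kept only where they aligned to mouse. The strand setting is not given in the sources used here, so reads of overlapping genes on both strands cannot be told apart. From the counts, library sizes were scaled by the trimmed mean of M values, and the fit of a comparison held only its own groups and was made by edgeR 4.0.16 (quasi-likelihood test, R 4.3.3) after edgeR's filter (minimum count 10, total 15), with Benjamini-Hochberg adjustment over all genes tested and a threshold of 0.05. The study itself used DESeq2's Wald test, which was run as an alternative (DESeq2 1.42.0), beside limma-voom (limma 3.58.1), other scalings and filters, 1 fit of all 18 libraries, the replicate number as a block, offsets fitted to GC content and exon length (mgcv 1.9.3), and each library left out in turn. Single values were also compared by a two-sided exact permutation test of log2(CPM + 1). Gene names, exons and GC content came from GENCODE M21, in which 49056 of the 49315 counted genes were found. GC content was pooled over all transcripts of a gene, so bases shared by several transcripts counted once for each. Members and gene lists were chosen with earlier results of these data known. All 37 members are accounted for. Given library by library are the 14 of the 19 called members with the smallest adjusted p, a fixed set (Casp1, Casp8, Mcl1, Bcl2, Bcl2l11, the Bcl2a1 copies, Fas, Ripk3, Mlkl, Nlrp3 and Gsdmd), and in each role the member with the largest genotype difference with ACs. From other lists at most 3 called genes a comparison are named. The tests were tried on simulated data with known changes.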

Additional observations from a re-analysis of the deposited data

Results flagged for a closer look

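The treatment effects below differed between HDAC3f/f and HDAC3-/- BMDMs by a test of the difference itself, the interaction term of edgeR's quasi-likelihood fit over 12 libraries with Benjamini-Hochberg adjustment. Values are log2 differences between the HDAC3-/- and the HDAC3f/f effect. For NACs against untreated the receptor Fas led with 4.13, followed by the caspase inhibitor Xiap (3.84) and by Casp4 (3.08), Nlrp3 (2.83), Birc3 (2.80), Ripk1 (2.79), Birc2 (2.63), Casp6 (2.51), Pdcd10 (2.51) and Mlkl (2.45). Smaller positive differences were found for Apaf1 (2.10), Casp8 (2.01), Cflar (1.67), Cycs (1.61) and Mcl1 (1.55). Differences of the other sign were those of Ripk3 (-1.96), Bcl2l1 (-1.63), Bak1 (-1.62) and Diablo (-1.62), so the anti-apoptotic genes Mcl1 and Bcl2l1 stood on opposite sides. Median GC content was 46.6% for the 15 positive and 54.0% for the 4 negative genes. Among all genes, 34.8% were called in this interaction, with a median GC content of 44.8% for the positive and 55.9% for the negative ones. For ACs against NACs Xiap differed by -3.40, beside 0.0765% of all genes called. With an offset for GC content and exon length the NACs against untreated differences shrank by more than 1.5 times and lost the call for Casp4 (1.57), Casp8 (1.265), Birc2 (1.19), Apaf1 (0.96), Cflar (0.64), Pdcd10 (1.29), Ripk3 (-0.82), Bcl2l1 (-0.695) and Bak1 (-0.13), shrank but kept it for Xiap (2.37) and Ripk1 (1.78), and changed sign for Cycs. With each of 12 libraries left out in turn, the NACs against untreated call was kept in 3 fits for Mcl1, 4 for Casp8, Cycs and Cflar, 5 for Bak1 and Nlrp3, and 11 or 12 for the other genes, and the ACs against NACs call of Xiap was kept in 4. Without HDAC3f/f untreated replicate 1 the difference of Mcl1 was 0.95 (adjusted p = 0.19). The B cell genes Cd79a and Cd79b, the fibroblast markers Thy1 and Fbln1, Ltf and Batf3 were called in the same interaction, at -3.98, -2.65, -3.71, -3.61, -1.85 and -2.79. The 19 and the 1 rest on the same HDAC3f/f and HDAC3-/- NACs libraries.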

How the results depend on the processing

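Counts of called genes moved with the processing more than their directions did. Of 427 values of the 43 calls recomputed with all libraries, 318 kept direction and call, 107 lost the call, and the 2 that changed sign were both the NACs against untreated interaction of Cycs, at -0.11 with the GC and length offset and -0.051 with it and the replicate block. With a library left out, 229 of 378 values were kept, 149 lost the call and 0 changed sign. Pdcd10 and Xiap for ACs against NACs in HDAC3-/- BMDMs, Pdcd10 between genotypes with ACs, and the NACs against untreated interactions of Casp6, Xiap, Birc3, Fas, Ripk1, Mlkl and Nlrp3 were called under every alternative that kept all libraries and could test them. Each count of the 37 genes is followed by the share of all genes called in the same fit. Between genotypes with ACs (3 calls, 3.75%), DESeq2's Wald test gave 5 (11.2%) and library totals alone 1 (3.11%). With NACs (1 call, 0.864%) the Wald test gave 2 (3.64%), DESeq2's size factors 2 (1.27%), a stricter filter (each library of the comparison at 10 counts or more) 2 (1.14%), no filter 3 (2.28%), and library totals, limma-voom, 1 fit of all 18 libraries and either offset fit 0 (0.0% to 0.319%). Untreated (7 calls, 11.6%) the counts were 12 by the Wald test (27.4%), 13 by totals (19.9%), 11 by limma-voom (18.8%) and under the stricter filter (18.2%), 14 in 1 fit (24.2%), and 0 by either offset fit (0.0%). For NACs against untreated in HDAC3f/f BMDMs (4 calls, 8.52%) they were 7 by the Wald test (14.1%), 8 under the stricter filter (14.5%), 2 by limma-voom (2.79%), and 0 by totals, 1 fit and either offset fit (0.0% to 0.0336%). In HDAC3-/- BMDMs (5 calls, 6.54%) they were 10 by the Wald test (19.0%), 13 by totals (17.4%), 8 by limma-voom (13.3%) and without a filter (6.3%), and 0 by size factors and either offset fit (0.0%). ACs against NACs in HDAC3-/- BMDMs (3 calls, 7.38%) gave 5 by the Wald test (11.7%) and 6 with the offset and the block (8.52%). The interactions gave, for ACs and NACs (1 call, 0.0765%), 3 by the Wald test (5.83%) and without a filter (1.92%), 2 with the offset (2.16%), and 0 by totals, 1 fit and the stricter filter (0.022% to 0.0721%), for ACs and untreated (0 calls, 0.0%) 3 by the Wald test (9.26%), and for NACs and untreated (19 calls, 34.8%) 9 with the offset (12.4%) and 11 with it and the block (9.95%). Leaving out each library gave 0 to 3 calls between genotypes with ACs (0.0% to 13.3% of all genes), 0 to 15 with NACs (0.0% to 24.6%) and 0 to 18 untreated (0.0% to 46.3%), 0 to 7 for ACs against NACs in HDAC3-/- BMDMs (0.0% to 23.9%), 0 to 16 (0.169% to 34.2%) and 0 to 17 (0.0% to 35.5%) for NACs against untreated in HDAC3f/f and HDAC3-/- BMDMs, and 0 to 5 (0.0% to 6.14%), 0 to 3 (0.0% to 8.11%) and 12 to 21 (22.3% to 46.2%) for the interactions of ACs with NACs, ACs with untreated and NACs with untreated. The cause of these changes was not tested. Library totals alone moved the median log2 change of all genes to -0.42 between untreated genotypes and 0.70 in the interaction of NACs and untreated, from 0.06 and 0.12.

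Same-numbered libraries did not consistently vary together: their deviations correlated at -0.33 to 0.46, and the correlation exceeded 0.1 for all 3 numbers in 0 of 9 comparisons. Whether libraries with the same number share a mouse was not stated. With the replicate number as a block the calls became 2 between genotypes with NACs (1.82% of all genes), 8 and 0 for NACs against untreated in HDAC3f/f (15.0%) and HDAC3-/- BMDMs (0.0%) and 2 for the interaction of ACs and NACs (1.16%), and other counts stayed within 1.5 times. Tnfrsf10b, Bcl2a1a, Pmaip1 and Casp4 had the lowest median CPM of the 37 genes, so their values rest on few counts. The part of depth in their results was not tested.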
